A study of Mus musculus and Mus musculus x Mus spretus with 8 samples.

Results

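The endoplasmic reticulum (ER) is the compartment in which secreted and membrane proteins enter the secretory pathway and fold. Described here are 36 mouse genes of ER protein folding, translocation, disulfide formation, degradation and stress signalling. They were chosen by name, not by a cut on their levels, but with earlier results of these data known. All 36 were found among the 24060 gene symbols measured in 8 single cells of the carotid body, the arterial organ that senses blood oxygen. The cells are labelled glomus cells, its oxygen-sensing, catecholamine-secreting cells, and were picked for expression of Th, Uchl1 and Kcnk3. All came from wild type mouse pups of post natal day 4-5. The strain is given as C57BL/6 for cells 1 and 3 to 8. For cell 2 it is C57BL/6 X SPRET/EiJ, where SPRET/EiJ is an inbred strain of another mouse species. No treatment, control group or animal is named for any cell, so the 8 cells count as 1 sample. Values are therefore given per cell or as lowest, median and highest over cells, with no test, and the SD describes the spread between these cells, which may include differences between animals.

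Each cell gave 3960200 to 30218206 counted reads, the deepest being cell 2, and between 4040 and 6956 genes were detected, meaning at 1 RPM or more, where RPM is the read count scaled to the same total in every cell. The upper limit that a count of 0 allows is taken as 3 reads, a one-sided 95% limit, where the intervals given for other counts are two-sided. It comes to 0.0993 RPM in cell 2 and 0.424 to 0.758 RPM in the other cells. Limits and intervals of both kinds reflect counting error alone, as the reads carry no stated mark of the molecule they were copied from. Cell 4 stood apart from the rest, with a median Spearman correlation to the other cells, across genes, of 0.318 against 0.378 to 0.423. All 8 of 8 glomus cell markers were detected in at least 6 cells. Their summed level was 6937 RPM in cell 4 and 14822 to 24083 RPM in the others. All 7 of 7 sympathetic neuron markers had reads, and their sum was 11469 RPM in cell 4 against 323 to 3315 RPM in the others. Of these, Stmn2, Npy and Slc6a2 were also detected in at least 5 of the cells, while Prph, Nefl and Nefm were detected in cell 4 only. Nefm was at 1.21 RPM there, just over the detection limit. Dbh was at 2588 RPM in cell 4 and 33.2 RPM in cell 8, with 0 reads in the others. All 9 of 9 blood and immune markers had 0 reads in every cell. So did 5 of 8 glial markers (Gfap, S100b, Sox10, Sox2 and Foxd3) and 5 of 7 endothelial markers (Pecam1, Cdh5, Kdr, Tek and Emcn). Among mural cell and fibroblast markers, 3 of 9 did (Col1a2, Lum and Pdgfra). At 1 RPM, 9 of 9 blood, 6 of 8 glial, 5 of 7 endothelial and 6 of 9 mural and fibroblast markers were detected in no cell. So were 55.2% of all symbols, and such shares alone do not show that a cell type is absent. The endothelial marker Cldn5 was detected in 6 cells. The summed levels were 0 to 154 RPM for the glial list, 0 to 2730 RPM for the endothelial list, of which Cldn5 reached 2730 and Egfl7 566 RPM, and 0 to 352 RPM for the mural and fibroblast list.

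In the ER, the Hsp70 chaperone BiP, encoded by Hspa5, binds unfolded proteins and also holds 3 membrane sensors, IRE1, PERK and ATF6, in an inactive state. When unfolded protein accumulates, IRE1 splices the Xbp1 mRNA, PERK slows translation while favouring that of Atf4, and ATF6 is cut by the site proteases in the Golgi. The resulting factors raise transcription of chaperones and of the machinery that returns misfolded proteins to the cytosol for degradation. Cells that secrete much protein keep parts of this program active without other stress. The files hold read counts per gene, so neither splicing of Xbp1, translation of Atf4 nor cutting of ATF6 was measured.

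The promoters of these genes are shown first, because the ER stress element is the sequence through which XBP1 and ATF6 are known to act. RefSeq promoters of build GRCm38.p6, from 250 bases before to 50 after each annotated start, were matched for 32 of the 36 genes. ER stress element I, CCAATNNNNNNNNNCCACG on either strand, was found in 9 of these 32, against 0.137% of the 27025 genes with a promoter. The genes were named for ER roles that this element is known to serve, so a larger share among them is no new finding. The 9 are Hspa5, Hsp90b1, Dnajc3, Creld2, Calr, Canx, Pdia6, Ero1lb and Syvn1. ER stress element II, ATTGGNCCACG, which shares the CCACG end, was found in Dnajb11 and Herpud1 and in 0.0444% of all genes. The Dnajb11 match lies 7 to 17 bases after the RefSeq start, not before it, and is not printed below. CCACG alone is common, in 24 of the 32 and in 35.5% of all genes. The core of the UPR element, TGACGTGG, which also reads as CCACG on its other strand, was in 0 of 32 and in 0.714% of all genes. The amino acid response element bound by ATF4, searched as TGATGNAA, was in Herpud1 only and in 4.51% of all genes. Each match below is printed on the gene's strand, 5′ to 3′, with the element in capitals. Where the capitals start with CGTGG, the element lies on the opposite strand.
Hspa5, chr2:34772020-34772048, plus strand, element 65 to 47 bases before the RefSeq start, inside an exon of the GENCODE annotation: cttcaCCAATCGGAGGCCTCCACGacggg
Calr, chr8:84847070-84847098, minus strand: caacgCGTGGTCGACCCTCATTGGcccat
Canx, chr11:50325795-50325823, minus strand: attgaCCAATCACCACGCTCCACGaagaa
Dnajc3, chr14:118937822-118937850, plus strand: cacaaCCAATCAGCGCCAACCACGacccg
Creld2, chr15:88819515-88819543, plus strand: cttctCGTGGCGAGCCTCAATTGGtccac
Pdia6, chr12:17266486-17266514, plus strand: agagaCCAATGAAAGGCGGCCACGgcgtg
Ero1lb, chr13:12565677-12565705, plus strand: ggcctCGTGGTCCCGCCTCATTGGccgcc
Syvn1, chr19:6046527-6046555, plus strand: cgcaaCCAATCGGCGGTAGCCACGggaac
Herpud1, element II, chr8:94386368-94386396, plus strand: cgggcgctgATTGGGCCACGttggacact

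Hsp90b1 held 2 matches to element I, and a longer stretch is printed so that their spacing can be seen. It spans chr10:86705510-86705694 on the minus strand, 185 bases, from 250 to 66 bases before the RefSeq start, and overlaps no annotated exon.
Hsp90b1: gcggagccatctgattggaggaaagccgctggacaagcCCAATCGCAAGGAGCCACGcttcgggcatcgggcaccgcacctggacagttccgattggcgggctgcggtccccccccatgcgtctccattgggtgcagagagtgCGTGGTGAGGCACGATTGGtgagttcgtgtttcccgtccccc
The match nearer the start lies on the opposite strand to the farther match. Among the 9 genes with element I, the median RPM over cells ran from 0 for Ero1lb to 1284 for Canx. Of the 9, 5 were detected in all 8 cells (Hspa5, Hsp90b1, Dnajc3, Calr and Canx) and 4 in fewer than 6. Of the 21 genes whose promoter held neither element, 3 were detected in all 8 cells and 7 in fewer than 6. Of all symbols, 4.88% were detected in all 8 cells and 14.2% in at least 6. The element was thus found both before Hspa5 and Canx, detected in every cell, and before Ero1lb, which had 0 reads in 7 cells.

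Taking all 36 genes, 23 were detected in at least 6 cells, as were 14.2% of all symbols and 31.8% of the symbols detected in any cell. The 9 detected in all 8 cells (4.88% of all symbols) were Hspa5, Hsp90b1, Dnajc3, Calr, Canx, P4hb, Sec61a1, Ssr3 and Sec62. The remaining 13 were detected in 1 to 5 cells, and none was undetected in all cells, as 55.2% of symbols were. The median of the genes' median levels was 87.9 RPM, against 0 over all symbols and 91.0 RPM over all symbols detected in at least 6 cells; for the 23 genes it was 223 RPM. That of all 36 was 44.9 RPM without cell 3, 58.5 RPM without cell 4 and 52.4 RPM without cell 7. A median of 100 RPM or more was reached by 16 of the 36 and by 7% of all symbols. Between 20 (cell 6) and 31 (cell 7) of the genes were detected per cell.

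**Figure D1:**
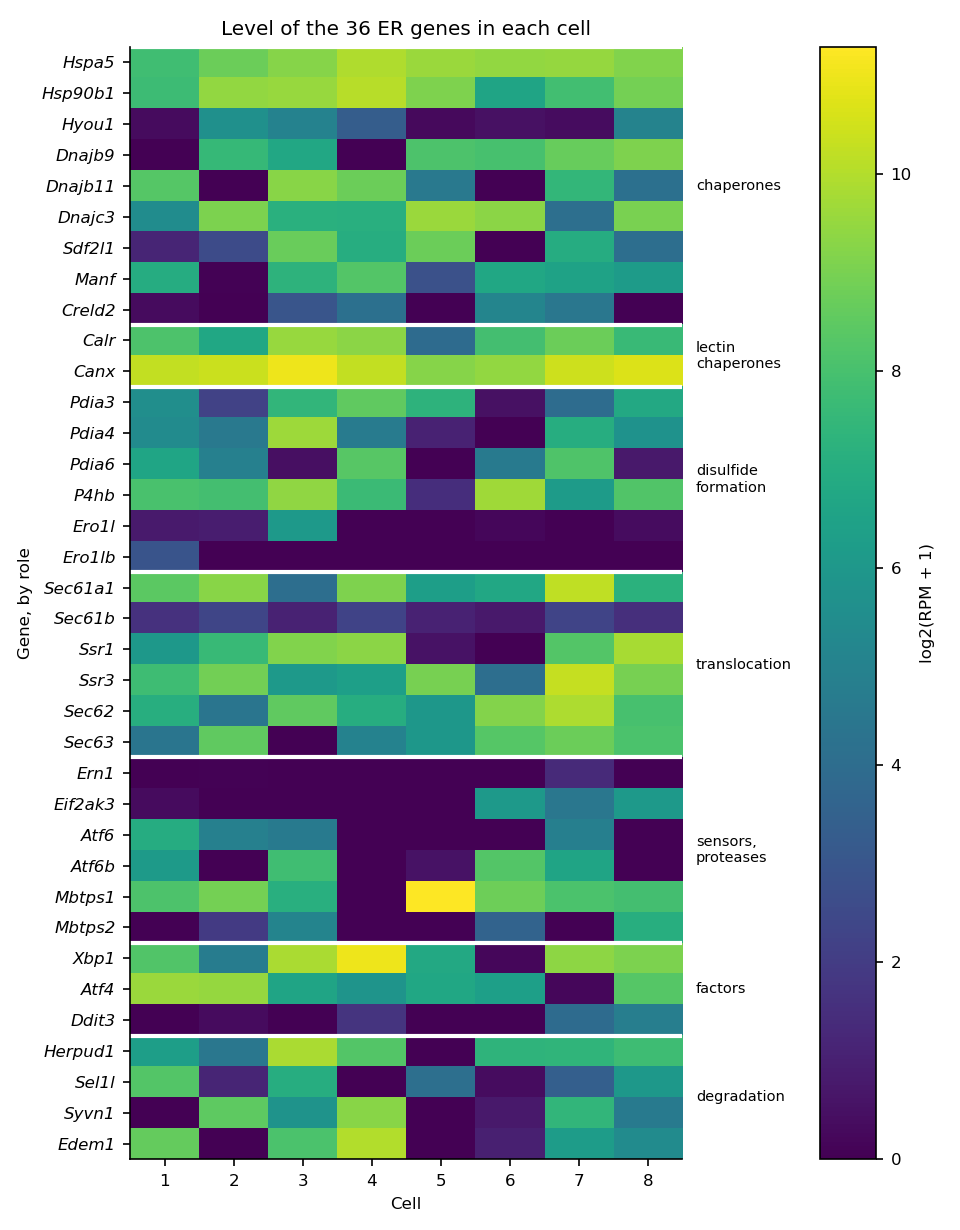
Level of each of the 36 genes (rows, grouped by role) in each of the 8 cells (columns), as log2(RPM + 1) on the colour scale. Canx and Hspa5 are high in every column, whereas the 6 sensors and proteases are all at 0 reads in cell 4. Of these 6, all but Mbtps1 are also below 1 RPM in several other cells, cell 5 among them.

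Scaled by length, to RPM per kb of the longest annotated transcript, the highest medians were those of Canx (299.8 RPM per kb, SD 109), Xbp1 (197, SD 321), Hspa5 (178, SD 62.4), Hsp90b1 (159, SD 102), Calr (119.9, SD 118) and Ssr3 (117, SD 136). Each step in this order was smaller than the SD of either neighbour, so neighbours did not differ beyond their spread between cells. At the other end stood Ern1 and Ero1lb at a median of 0, with Eif2ak3 (0.0280 RPM per kb), Ero1l (0.0488), Ddit3 (0.137) and Mbtps2 (0.293) just above. The chaperone genes Canx, Hspa5, Hsp90b1 and Calr thus stood near the top with Xbp1 and Ssr3, and the sensors Ern1 and Eif2ak3 and both ERO1 oxidases at the foot, while other chaperone and sensor genes lay between. The lowest medians depend on single cells: those of Eif2ak3, Ddit3 and Mbtps2 were 0 when any 1 of 4 cells was left out. The cells were 1, 6, 7 and 8 for Eif2ak3, 2, 4, 7 and 8 for Ddit3 and 2, 3, 6 and 8 for Mbtps2. That of Ssr3 in RPM fell from 345 to 221 without cell 2, 5, 7 or 8.

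Among the Hsp70 and Hsp90 chaperones and their partners, 7 of 9 genes were detected in at least 6 cells. For this and each role below, the share of all symbols so detected is 14.2%. Hspa5 (chromosome 2, 34771970 to 34777547, plus strand of GRCm38), which encodes BiP, ran from 228 RPM in cell 1 to 987 RPM in cell 4, with a median of 655 RPM. Its SD of 0.65 on the log2(RPM + 1) scale was among the smallest of the set. Hsp90b1 (chromosome 10, 86690209 to 86705509, minus strand), which encodes the ER Hsp90 protein GRP94, had a median of 512 RPM and ran from 95.4 RPM in cell 6 to 1091 RPM in cell 4. Cell 4 thus held the highest level of both. Per kb and within a cell, Hsp90b1 was above Hspa5 in 4 cells and under it in 4, and the median difference was 0.02 log2 units with an SD of 1.15. With median transcript lengths it was -0.96, also within that SD.

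The J-domain partners, which stimulate the ATPase of BiP, were less even. Dnajc3 was detected in all 8 cells, at 16.2 RPM (cell 7) to 771 RPM (cell 5) with a median of 332 RPM. That median was 142 RPM without cell 2, 5, 6 or 8 and 522 RPM without cell 1, 3, 4 or 7. Dnajb9 had 0 reads in cells 1 and 4 and 109 to 543 RPM in the other 6. Dnajb11 had 0 reads in cells 2 and 6 and 17.1 to 624 RPM in the rest. No cell lacked all 3. Every cell thus held at least 1 J-domain partner at 100 RPM or more, but the one with most RPM differed: Dnajb11 in cells 1, 3 and 4, Dnajc3 in cells 2, 5 and 6, and Dnajb9 in cells 7 and 8.

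The remaining chaperone partners were lower. Hyou1, which encodes the nucleotide exchange factor GRP170, was at 8.90 to 50.04 RPM in cells 2, 3, 4 and 8 and below 1 RPM in the others. Sdf2l1, a partner of the J-domain proteins, ran from 0 reads in cell 6 to 430 RPM in cell 5, with a median of 70.5 RPM, which was 15.7 RPM without cell 3, 4, 5 or 7 and 125 RPM without cell 1, 2, 6 or 8. Manf, which encodes a secreted ER stress protein that binds BiP, had a median of 97.1 RPM and ran from 1 read (0.0331 RPM) in cell 2 to 310 RPM in cell 4. Creld2, an ER stress gene with disulfide isomerase activity, was detected in 4 cells, at 6.97 to 34.3 RPM.

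Calnexin and calreticulin hold glycoproteins by their sugars while these fold. Canx (chromosome 11, 50293961 to 50325673, minus strand), the membrane-bound form, was the highest of the 36 genes in median RPM and ran from 602 RPM in cell 5 to 2049 RPM in cell 3, with a median of 1284 RPM and an SD of 0.59 log2 units. Calr (chromosome 8, 84841850 to 84846934, minus strand), the soluble form, ran from 14.3 RPM in cell 5 to 750 RPM in cell 3, with a median of 262 RPM and an SD of 1.79. Both were thus lowest in cell 5 and highest in cell 3. Per kb, Canx was above Calr in 7 cells. The difference had a median of 0.93 log2 units, an SD of 1.42 and a range of -0.04 in cell 4 to 4.23 in cell 5. The median was 1.90 with no length scaling and 2.24 with median transcript lengths.

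Of the genes of disulfide formation, 3 of 6 were detected in at least 6 cells. P4hb (chromosome 11, 120560298 to 120573253, minus strand), which encodes the main protein disulfide isomerase, had a median of 253 RPM and ran from 1.79 RPM in cell 5 to 814 RPM in cell 6, the other 7 cells being at 73.1 RPM or more. Pdia3, the isomerase that works with calnexin and calreticulin, had a median of 78.6 RPM and ran from 0.424 RPM in cell 6 to 373 RPM in cell 4. Its median was 47.2 RPM without cell 3, 4, 5 or 8. Cell 6 thus had the highest P4hb and the lowest Pdia3. Per kb, P4hb was above Pdia3 in 6 cells. The median difference of 1.98 log2 units was smaller than its SD of 3.88.

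Pdia4, a further isomerase, ran from 0 reads in cell 6 to 783 RPM in cell 3, with a median of 33.8 RPM. Pdia6, an isomerase that also acts on the sensors, was detected in 5 cells at 23.7 to 323 RPM and was below 1 RPM in cells 3, 5 and 8. The ERO1 oxidases, which recharge the isomerases, were near 0. Ero1l was at 65.9 RPM (350 reads) in cell 3 and below 1 RPM in the other 7 cells. Ero1lb had 26 reads in cell 1, or 6.57 RPM with a 95% Poisson interval of 4.29 to 9.62 RPM, and none in the other 7. No cell thus held both at 1 RPM or more, and 6 of 8 held neither.

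Genes of translocation into the ER were all detected in at least 6 cells, 6 of 6. Sec61a1 (chromosome 6, 88503579 to 88518905, minus strand), the pore subunit, had a median of 249 RPM and ran from 15.8 RPM in cell 3 to 1172 RPM in cell 7, the median being 148 RPM without cell 1, 2, 4 or 7. Its small partner Sec61b was at 0.707 to 4.20 RPM, from 5 to 127 reads per cell. The SD of Sec61b was 0.63 log2 units, between those of Canx and Hspa5. Near 1 RPM, however, log2(RPM + 1) narrows the spread, so the SD of Sec61b does not compare with theirs. Matches of at least 95% identity to transcripts of other genes cover 22.8% of its longest transcript and 84.0% of its most covered transcript, so its level is uncertain. Such matches, which include exons shared with overlapping genes, also cover 10.8% to 21.7% of the longest transcripts of Hsp90b1, Ero1lb, Sec61a1, Sec62 and Eif2ak3, and at most 7.39% of those of the other genes. Shorter transcripts of some genes were covered more. The most covered transcript reached 73.7% for Mbtps2, which also shares 28.4% of its exon bases with Yy2 on the same strand, 55.0% for Ero1lb, 52.1% for Hsp90b1, 40.7% for Dnajb9, 38.2% for Manf, 36.3% for Ero1l and 18.6% for Eif2ak3. The levels of these genes are therefore uncertain as well, as it is not known how reads with several matches were counted.

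The translocon-associated protein subunits Ssr1 and Ssr3 act beside the pore. Ssr3 had a median of 345 RPM and ran from 15.7 RPM in cell 6 to 1245 RPM in cell 7. Ssr1 had 0 reads in cell 6, 0.447 RPM in cell 5 and 63.4 to 893 RPM in the rest. Per kb, Ssr3 was above Ssr1 in 6 cells, with a median difference of 2.77 log2 units and an SD of 2.86; with no length scaling it was 1.53. Sec62 and Sec63 help proteins that enter after their translation. Sec62 ran from 20.1 RPM in cell 2 to 960 RPM in cell 7, with a median of 196 RPM. Sec63 had 0 reads in cell 3 and 19.9 to 428 RPM elsewhere, with its highest level also in cell 7. Per kb, Sec63 was under Sec62 in 7 cells and above it in cell 2, with a median difference of -1.61 log2 units and an SD of 2.79; with median transcript lengths it was -3.70. Of the 6 translocation genes, 4 had their highest level in cell 7 (Sec61a1, Ssr3, Sec62 and Sec63), the cell that is highest for 11.6% of all symbols detected in at least 6 cells. The summed level of the 6 was 4120 RPM in cell 7 and 708 to 2076 RPM in the others.

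Of the 6 sensors and site proteases, 1 was detected in at least 6 cells, beside 14.2% of all symbols. Ern1, which encodes IRE1 alpha, had 10 reads in cell 7 (1.54 RPM, 95% Poisson interval 0.739 to 2.83 RPM), 1 read in cell 2 and 0 in the other 6 cells. Eif2ak3, which encodes PERK, was at 66.4, 21.4 and 66.5 RPM in cells 6, 7 and 8 and at 1 or 0 reads in cells 1 to 5. Atf6 was at 127, 29.6, 23.5 and 28.5 RPM in cells 1, 2, 3 and 7 and had 0 reads in the others. Its relative Atf6b, a weaker activator, was at 69.7, 227, 306 and 95.1 RPM in cells 1, 3, 6 and 7, at 0.447 RPM in cell 5 and at 0 reads in cells 2, 4 and 8. Cell 7 was the single cell in which all 4 sensors reached 1 RPM, and cells 4 and 5 had none of them at that level. Per kb, Atf6b was above Atf6 in 5 cells and under it in 1, and the median difference of 0.42 log2 units was smaller than its SD of 2.96, as was the 1.87 found with median transcript lengths. Eif2ak3 exceeded Ern1 in 4 cells, by 2.23 to 3.98 log2 units in cells 6, 7 and 8.

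The site proteases cut ATF6 in the Golgi. Mbtps1 (chromosome 8, 119508156 to 119558735, minus strand), the site-1 protease, was at 136 to 487 RPM in 6 cells, at 2502 RPM in cell 5 and at 0 reads in cell 4. Mbtps2, the site-2 protease, was at 2.81, 33.5, 11.2 and 135 RPM in cells 2, 3, 6 and 8 and had 0 reads in the others. Per kb, Mbtps2 was under Mbtps1 in 7 of 8 cells, with a median difference of -4.84 log2 units and an SD of 3.00, and both were at 0 reads in cell 4. In cell 4 all 6 sensors and proteases had 0 reads, each of which allows up to 0.607 RPM. Cell 4 detected 5140 of the 24060 symbols, and of these 6 genes only Mbtps1 was detected in most other cells. In cell 5, too, only Mbtps1 of the 6 reached 1 RPM. Cell 4 is the cell with the lowest summed glomus markers and the highest summed sympathetic neuron markers, and the part of cell type in this result was not tested.

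Of the stress transcription factors, Xbp1 and Atf4 were both detected in 7 of 8 cells. Xbp1 (chromosome 11, 5520659 to 5525893, plus strand) was at 296, 25.6, 927, 2060, 110, 0.141, 669 and 541 RPM in cells 1 to 8. Atf4 (chromosome 15, 80255184 to 80257541, plus strand) was at 759, 722, 96.8, 55.6, 106, 80.7, 0.154 and 319 RPM in the same cells. The cells differed in which of them was higher. Per kb, Atf4 led by over 1 log2 unit in cells 1, 2 and 6, Xbp1 did so in cells 3, 4 and 7, and the difference was smaller in cells 5 and 8. The difference of Xbp1 minus Atf4 ran from -5.26 log2 units in cell 6 to 8.19 in cell 7. Its median was 0.33 with an SD of 4.66. Leaving out any of cells 3, 4, 7 and 8 gave -0.02, and leaving out any of the others gave 0.68. Both extremes rest on 1 read, of Xbp1 in cell 6 and of Atf4 in cell 7.

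Ddit3, which encodes CHOP, a factor induced by PERK signalling and tied to cell death under lasting stress, was detected in 3 cells. It was at 2.23 RPM in cell 4, 14.3 RPM in cell 7 and 27.7 RPM in cell 8, with 0 reads in cells 1, 3, 5 and 6 and 0.265 RPM in cell 2. Per kb, it was under Atf4 in 7 cells and above it in cell 7, with a median difference of -5.48 log2 units and an SD of 3.95; with a pseudocount of 0.1 it was -8.78. Ddit3 was thus low or at 0 in every cell, also in cells 1 and 2, where Atf4 was highest.

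**Figure D2:**
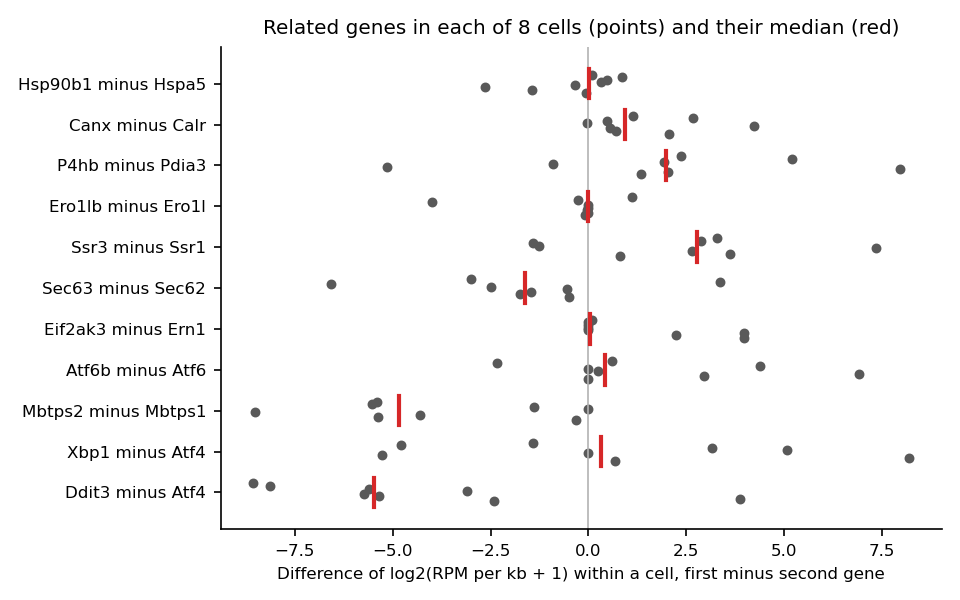
Difference of log2(RPM per kb + 1) between related genes within each cell (points, 8 per pair, first minus second gene) and the median over cells (red bar). Mbtps2 lies at or left of 0 in every cell, whereas Xbp1 minus Atf4 spreads from -5.26 to 8.19.

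ER-associated degradation draws misfolded proteins out of the ER for the proteasome. Of its 4 genes, 2 were detected in at least 6 cells, Herpud1 and Sel1l. Herpud1 (chromosome 8, 94386438 to 94395377, plus strand), a stress-induced scaffold of the degradation complex, had 0 reads in cell 5 and 21.5 to 913 RPM in the rest, with a median of 162 RPM. Sel1l, the adaptor of the ubiquitin ligase, ran from 0 reads in cell 4 to 309 RPM in cell 1. Syvn1, the ligase HRD1 itself, reached 613 RPM in cell 4, its highest value, but had 0 reads in cells 1 and 5. Cells 1 and 4 were thus opposites for these partners: Sel1l was highest in cell 1, where Syvn1 had 0 reads, and Syvn1 was highest in cell 4, where Sel1l had 0 reads. Edem1, which passes on mannose-trimmed glycoproteins, reached 999.6 RPM in cell 4, with 0 reads in cells 2 and 5. The summed level of the 4 genes was 16.5 RPM in cell 5 and 1923 RPM in cell 4.

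The summed level of all 36 genes differed by 1.99 times between the lowest and the highest cell. It was 6018, 6964, 11179, 11397, 7050, 5713, 9724 and 8296 RPM in cells 1 to 8, that is 0.571% to 1.14% of a cell's reads, with a median of 7673 RPM (SD 2241). Cells 3 and 4 held the most and cell 6 the least, and their makeup differed. In cell 4, the 3 transcription factors summed to 2118 RPM, nearly all Xbp1, against 80.9 to 1055 RPM elsewhere. In cell 3, the 6 genes of disulfide formation summed to 1707 RPM against 160 to 926 RPM elsewhere. In cell 5, the sensors and proteases summed to 2502 RPM, nearly all Mbtps1.

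**Figure D3:**
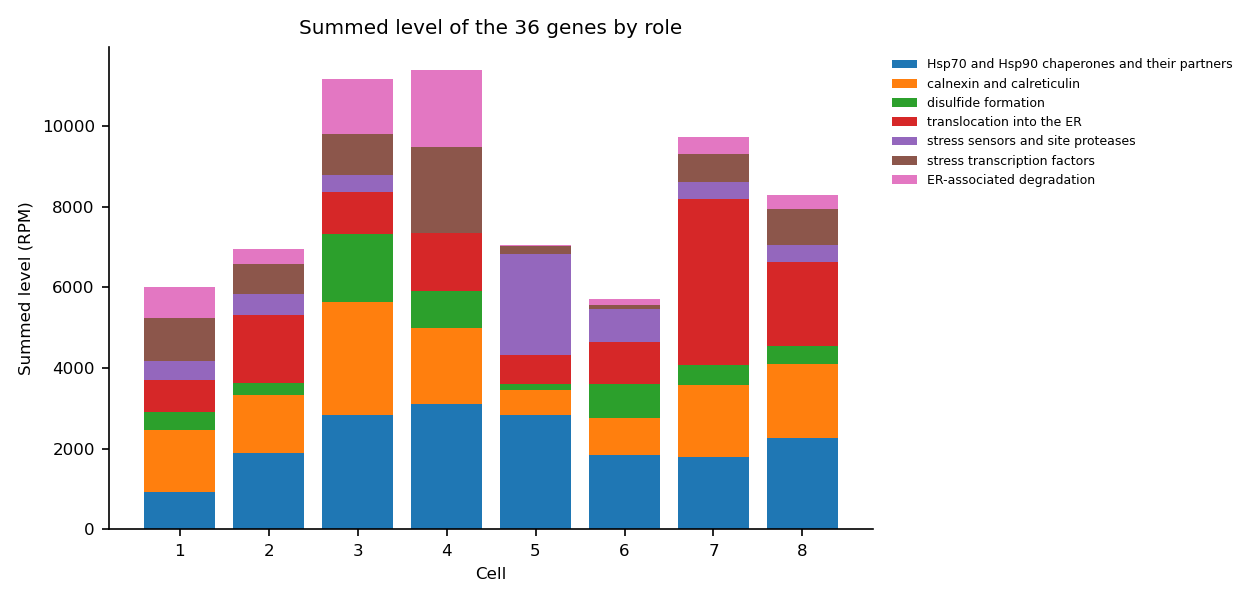
Summed RPM of the 36 genes in each of 8 cells, stacked by role. Cells 3 and 4 reach 11179 and 11397 RPM; the translocation genes make up the largest block in cell 7 and the sensors and proteases, through Mbtps1, a large block in cell 5.

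The genes spread between cells about as far as other detected symbols did. The median SD of the 23 genes detected in at least 6 cells was 2.82 log2 units, against 2.77 over all symbols detected in at least 6 cells. Of the 23, 3 had an SD under 1 (Hspa5, Canx and Sec61b), as did 6.46% of all symbols so detected. For Sec61b, at 4.20 RPM or less, the pseudocount of 1 narrows the SD. An SD over 3 was found for 10 of the 23 and for 37.1% of those symbols. A count of 0 reads in at least 1 cell was found for 21 of the 36 genes and for 84.1% of the symbols detected in any cell. In sequencing of amplified single cells, loss of a transcript before amplification and absence from the cell cannot be told apart. Of the 31 genes detected in at least 4 cells, 12 lay over 2 log2 units above or below all 7 other cells in some cell, 38.7% against 27.2% of all symbols detected in at least 4 cells. These 12 gave 13 such values, 10 below and 3 above. The values above were those of Atf6 in cell 1, Pdia4 in cell 3 and Mbtps1 in cell 5. Those below were of Manf in cell 2, Sec61a1 and Sec63 in cell 3, Mbtps1 in cell 4, Calr, P4hb and Herpud1 in cell 5, Ssr3 and Xbp1 in cell 6 and Atf4 in cell 7. With a margin of 1 log2 unit there were 26 such values, and with a pseudocount of 10 there were 6.

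**Figure D4:**
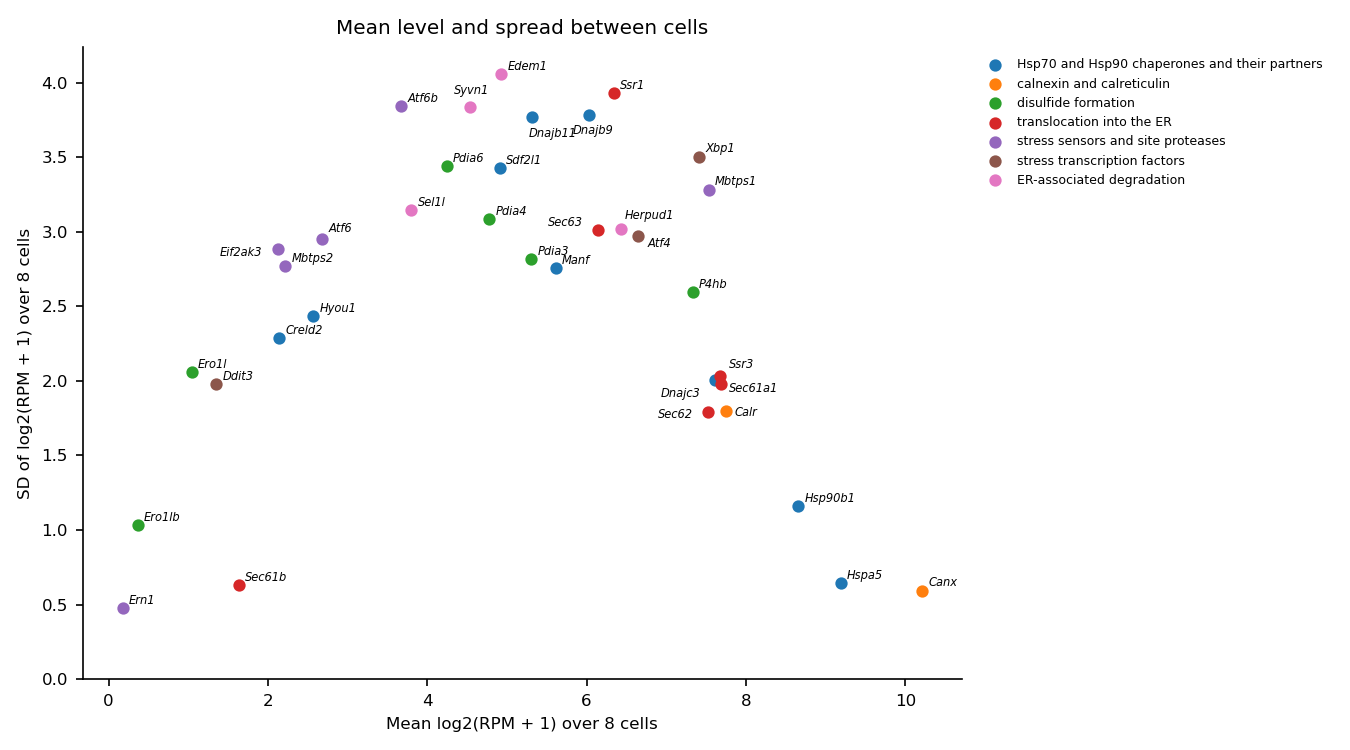
Mean (horizontal axis) and SD (vertical axis) of log2(RPM + 1) over the 8 cells for each of the 36 genes, coloured by role. Canx, Hspa5 and Hsp90b1 combine the highest means with SDs of 0.59, 0.65 and 1.16, while Ern1, Sec61b and Ero1lb have a low SD near a level of 0.

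Of the 23 genes detected in at least 6 cells, 5 were highest in cell 4 (Hspa5, Hsp90b1, Manf, Pdia3 and Xbp1), and cell 4 was the highest cell for 13.3% of all symbols so detected. As many, 5, were highest in cell 3 (Dnajb11, Calr, Canx, Pdia4 and Herpud1), where 14.2% of all symbols had their highest level. Of the 13 genes detected in fewer than 6 cells, Pdia6, Syvn1 and Edem1, detected in 5 each, were highest in cell 4 and the rest in other cells. The share of all symbols so detected that were highest in cell 4 was not counted. The summed sympathetic neuron markers were also highest in that cell, and their part in this pattern was not tested.

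The other genes of the pathway, fixed as 4 lists of 123 genes, were led by genes of folding, glycan transfer and degradation. Of the 121 measured, 48 passed the detection limit in 6 or more cells, set against 14.2% of all symbols, and 19 in no cell. Of 33 further folding genes 12 were so detected, led by the thioredoxin-like Tmx4 (median 305 RPM), the prolyl isomerase gene Ppib (204 RPM), Erp29 (183 RPM, range 160 to 515) and the glucosidase subunit gene Ganab (178 RPM). Of 29 further genes of translocation, signal peptidase and glycan transfer 16 were, led by the oligosaccharyltransferase gene Stt3b (420 RPM), the signal peptidase gene Spcs2 (260 RPM), Dad1 (197 RPM) and Rpn1 (168 RPM). Of 27 further degradation genes 14 were, among them Derl1 (289 RPM), a candidate channel for retrotranslocation, Ubxn4 (186 RPM) and Vimp (180 RPM).

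The further stress response genes detected in at least 6 cells were fewer than in each other further list, at 6 of 32. Of all symbols, 14.2% were so detected. Detected in no cell were 9 of 32, against 55.2% of all symbols. The median of these genes' medians was 0 RPM, the same as over all symbols. Those with the highest medians were the folate enzyme gene Mthfd2 (251 RPM), the amino acid transporter gene Slc3a2 (229 RPM), Crebrf (78.3 RPM) and the kinase gene Eif2ak4 (14.5 RPM), which encodes GCN2, the amino acid sensor that also acts through Atf4. For comparison, 19 of the 24 chaperones listed for the cytosol and mitochondria were found in 6 or more cells, with 13 in all 8, led by Hsp90ab1 at 888 to 2006 RPM. Their summed level was 3895 to 7836 RPM and was highest in cells 4 and 5. Cell 5 was thus among the highest for chaperones outside the ER. Its ER Hsp70 and Hsp90 chaperones and their partners, at 2831 RPM, were also high, next to the 3114 RPM of cell 4. Calnexin and calreticulin, at 616 RPM, were lowest in cell 5. The sum of all 36 ER genes, which holds other roles too, was 7050 RPM in cell 5, below its median.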

How the data were processed

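Single cells were lysed, their RNA was amplified by RT-PCR and Nextera libraries were made, per the labels' protocols. Reads were aligned with Bowtie to mm10, per the submitters' processing notes; version, counter, annotation, strand and multi-mapping were not given in the sources used here. The authors deposited a raw read count and an RPM value per symbol and cell, per the file headers. The deposited RPM equals the count over the cell's total, scaled to 1 fixed sum in all cells, with no length scaling. The 36 members and all lists were chosen with earlier results of these data known. Detection was 1 RPM; logs used a pseudocount of 1. Named genes are all 36 members, the 4 highest of each further list, and list markers; 1 gene this rule takes is not reported here. Lengths, positions and overlaps came from GENCODE M21 (GRCm38); 2 listed symbols were absent from the files. Matches to other transcripts used blastn 2.17.0 (95% identity, 50 bases); unannotated copies are not covered. Coverage along transcripts is not known, so values per kb assume even coverage. Promoters are RefSeq's; protein ends, planned, were not analysed here. The search for values outside the range of the other cells was tested on simulated cells. Those cells spread far less than the real ones and lost no transcripts at random. The test therefore does not show how well the search works in these data. Python 3.11.15, numpy 2.4.6 and pandas 2.3.3 were used. Alternatives are in the closing section.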

Additional observations from a re-analysis of the deposited data

Results flagged for a closer look

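For 6 of the 36 genes, 1 cell lay farther from its nearest neighbour, relative to the range of the 8 log2 levels, than the 95% limit of Dixon's test. Chance gives this for about 1 in 20 groups of normal values, and 12.7% of all symbols detected in at least 6 cells met it, or 28.3% of those detected in at least 1 cell. P4hb was low in cell 5 at 1.79 RPM, Mbtps1 in cell 4 at 0 RPM and Atf4 in cell 7 at 0.154 RPM. The other 3 were detected in 1 cell each and stood out as high there: Ero1l in cell 3 at 65.9 RPM, Ero1lb in cell 1 at 6.57 RPM and Ern1 in cell 7 at 1.54 RPM.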

How the results depend on the processing

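The count of genes detected in at least 6 cells, 23, was 27 at a limit of 0.1 RPM, 20 at 10 RPM, 24 with counts thinned to the shallowest cell, 22 without cells 2 and 4 (chosen after seeing the data) and 23 to 26 with 1 cell left out. The summed level was 7050 to 8296 RPM with 1 cell left out. The median level, 87.9 RPM, was 28.2 per kb of transcript and 44.9 to 100.4 RPM with 1 cell left out. The values outside the range of the other cells, 13, were 26 at a margin of 1 log2 unit, 6 with a pseudocount of 10 and 19 with 0.1. Among the pairs, Hsp90b1 minus Hspa5 was -0.17 with no length scaling and -0.96 with median transcript lengths, -0.05 to 0.09 with 1 cell left out, and Xbp1 minus Atf4 -0.02 to 0.68. Canx minus Calr was 0.71 to 1.15 with 1 cell left out and 1.90 with no length scaling and 2.24 with median transcript lengths. Mbtps2 minus Mbtps1 was -5.38 to -4.31 and Ddit3 minus Atf4 -5.61 to -5.36 with 1 cell left out. Other settings moved several pairs farther. With no length scaling, median transcript lengths and a pseudocount of 0.1, in this order, Mbtps2 minus Mbtps1 was -6.09, -7.13 and -5.73, Ddit3 minus Atf4 -6.48, -5.71 and -8.78, Sec63 minus Sec62 -1.02, -3.70 and -1.63, Ssr3 minus Ssr1 1.53, 1.75 and 3.19, Atf6b minus Atf6 0.27, 1.87 and 1.04, and Xbp1 minus Atf4 0.41, 1.13 and 0.33. Leaving out 1 cell moved the median RPM of 16 of the 36 genes by over 1.5 times. In all, 164 values of these results under an alternative stayed within 1 SD or, for counts, within 1.5 times of the reported value. The other 3 (the median per kb, the margin of 1 and the pseudocount of 10) did not, and the cause was not tested. The SD was that between cells or, for the spread, between genes. This tally does not measure stability. The SDs are wide, so that Ddit3 minus Atf4 at -8.78 passed. With 1 cell left out, the median of a pair or of the summed level can move only to a middle value. No paired analysis was possible because the labels name 1 group. Depth limits values near 0: 1 to 3 reads decide several of them.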
